A study of Mus musculus with 12 samples.

Results

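The transcripts described here are those of 10 genes that code for matrix proteins and for ligands and receptors of the TGF-beta pathway, measured in neutrophils of the PyMT mouse model of breast cancer. They were taken by name from the 55335 genes listed in each library: the matrix proteins Spp1, Fn1, Thbs1, Tgfbi, Ccn1 and Sparc, the ligands Tgfb1 and Gdf15, and the receptors Tgfbr1 and Tgfbr2. Neutrophils were sorted as CD45+ CD11b+ Ly6G+ F4/80- cells and their RNA was sequenced from 3 groups of 4 animals, all 10 weeks old, on a FVB background and kept under SOPF conditions, free of specific and opportunistic pathogens. PyMT TANs (tumor associated neutrophils) came from mammary tumors of FVB mice that carry the polyoma middle T oncogene and an intact Cxcr2 gene. PyMT-Cxcr2-/- TANs came from mammary tumors of mice with the same oncogene that lack the chemokine receptor Cxcr2 in all their cells, and not in neutrophils alone. WT BM neutrophils came from the bone marrow of WT mice, which carry neither the oncogene nor a Cxcr2 deletion. Per the paper's methods, tumors were minced and digested with a dissociation kit, whereas marrow was spun out of leg bones. Tissue, tumor and cell preparation therefore cannot be told apart when TANs are compared with BM neutrophils. The 3 comparisons asked how TANs of each genotype differed from BM neutrophils, and how the loss of Cxcr2 changed TANs.

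TGF-beta ligands are secreted in a latent form, are released from it by integrins and proteases, and then bring the type II receptor Tgfbr2 and the type I receptor Tgfbr1 together, which phosphorylates Smad proteins that regulate transcription. Matricellular proteins such as osteopontin (Spp1), thrombospondin 1 (Thbs1) and Ccn1 are secreted into the matrix, where they act on integrins and other receptors more than as structure, and thrombospondin 1 can activate latent TGF-beta. In tumors, TGF-beta is known to act on neutrophils as well as on cancer cells and fibroblasts, and many matrix genes are among the targets of the pathway.

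The total count on genes was 25032704 to 51351569 per library, so that 3 counts, taken as the smallest level that the depth can show, corresponded to 0.0575 to 0.0997 CPM, the unit in which counts are scaled to library size, here with TMM factors. The level of Cxcr2 was 1030 to 1536 CPM in the libraries of PyMT TANs, 1818 to 2250 CPM in WT BM neutrophils and 8.97 to 10.1 CPM in PyMT-Cxcr2-/- TANs, as the labels imply. All 14 neutrophil markers had counts in all 12 libraries, with a summed level of 15587 to 38785 CPM in TANs and 81362 to 107693 CPM in BM neutrophils. Markers of other cells moved with the groups. The 15 macrophage markers summed to 2368 to 5455 CPM in PyMT TANs, 2647 to 5767 CPM in PyMT-Cxcr2-/- TANs and 389 to 509 CPM in BM neutrophils, and 13 of the 14 that were tested were higher in each group of TANs. Of the 15 mammary epithelium markers, Lcn2, which neutrophils themselves express, was left out of the sum after its values were seen. The remaining 14 summed to 330.2 to 1253 CPM in PyMT TANs, 471 to 1137 CPM in PyMT-Cxcr2-/- TANs and 68.8 to 90.1 CPM in BM neutrophils, where Krt8, Krt19, Krt5, Krt14, Csn1s1, Csn2, Csn3 and Cldn3 had 0 counts in all 4 libraries. Trf, which codes for transferrin, alone made up 57.4% to 83.6% of this sum in the TAN libraries and 99.3% to 99.9% in BM neutrophils, and the other 13 markers summed to 54.3 to 534 CPM in PyMT TANs, 97.6 to 389 CPM in PyMT-Cxcr2-/- TANs and 0.0599 to 0.514 CPM in BM neutrophils. With Lcn2, all 15 summed to 641 to 2191 CPM in TANs and 5400 to 8619 CPM in BM neutrophils. Fibroblast markers summed to 167 to 311 CPM in TANs and 37.6 to 95.2 CPM in BM neutrophils. In bulk samples such as these, fewer cells of a type and less RNA per cell cannot be told apart.

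The matrix protein genes other than Tgfbi changed most of the 10 between marrow and tumor. Spp1, Fn1, Ccn1 and Sparc were higher in both groups of TANs than in WT BM neutrophils, while Thbs1, the most abundant of the 10 genes in BM neutrophils, was lower in both. Gdf15 and Tgfbr1 were higher in both groups of TANs, whereas Tgfb1 changed by less than 1.5-fold. A gene was counted as changed at an adjusted p under 0.05 (quasi-likelihood test of edgeR, adjusted after Benjamini and Hochberg over all genes tested) and a fold change of 1.5 or more. In PyMT TANs compared to BM neutrophils, 6 of the 10 genes rose, 1 fell and 7 had groups that did not overlap, against 53.3% of all 17153 genes tested that changed (30.1% higher and 23.2% lower) and 58.2% without overlap. In PyMT-Cxcr2-/- TANs compared to BM neutrophils, 8 rose, 1 fell and 9 did not overlap, against 59.5% of 17732 genes that changed (34.4% higher and 25.1% lower) and 65.8% without overlap. Between PyMT-Cxcr2-/- and PyMT TANs, 0 of the 10 passed both thresholds by edgeR, against 1.98% of 18463 genes (1.38% higher and 0.596% lower). In that comparison 2 of them, Thbs1 and Tgfbr1, had an unadjusted p under 0.05 and groups without overlap, against 11.9% of all genes without overlap, and DESeq2 called 1, Thbs1, against 5.17% of the genes it tested. The median log2 fold change of the 10 genes was 1.84, 1.74 and 0.10 in the 3 comparisons, beside 0.09, 0.09 and -0.07 over all genes tested. All 10 passed the filter on low counts in each comparison. Ccn1 and Sparc passed against BM neutrophils through their counts in TANs, so their rises carry no weight in these counts. The medians against BM neutrophils include both genes and are raised by them. Of the 5 matrix genes other than Ccn1, 3 rose in PyMT TANs and 4 in PyMT-Cxcr2-/- TANs, Sparc among them. Of all genes tested with 10 or more counts in a BM library, 25.98% and 28.57% rose. Like Sparc, some of these genes may have passed the filter only through TANs. Both comparisons with BM neutrophils use the same 4 BM libraries, so their values are given side by side and are not independent of each other.

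**Figure D1:**
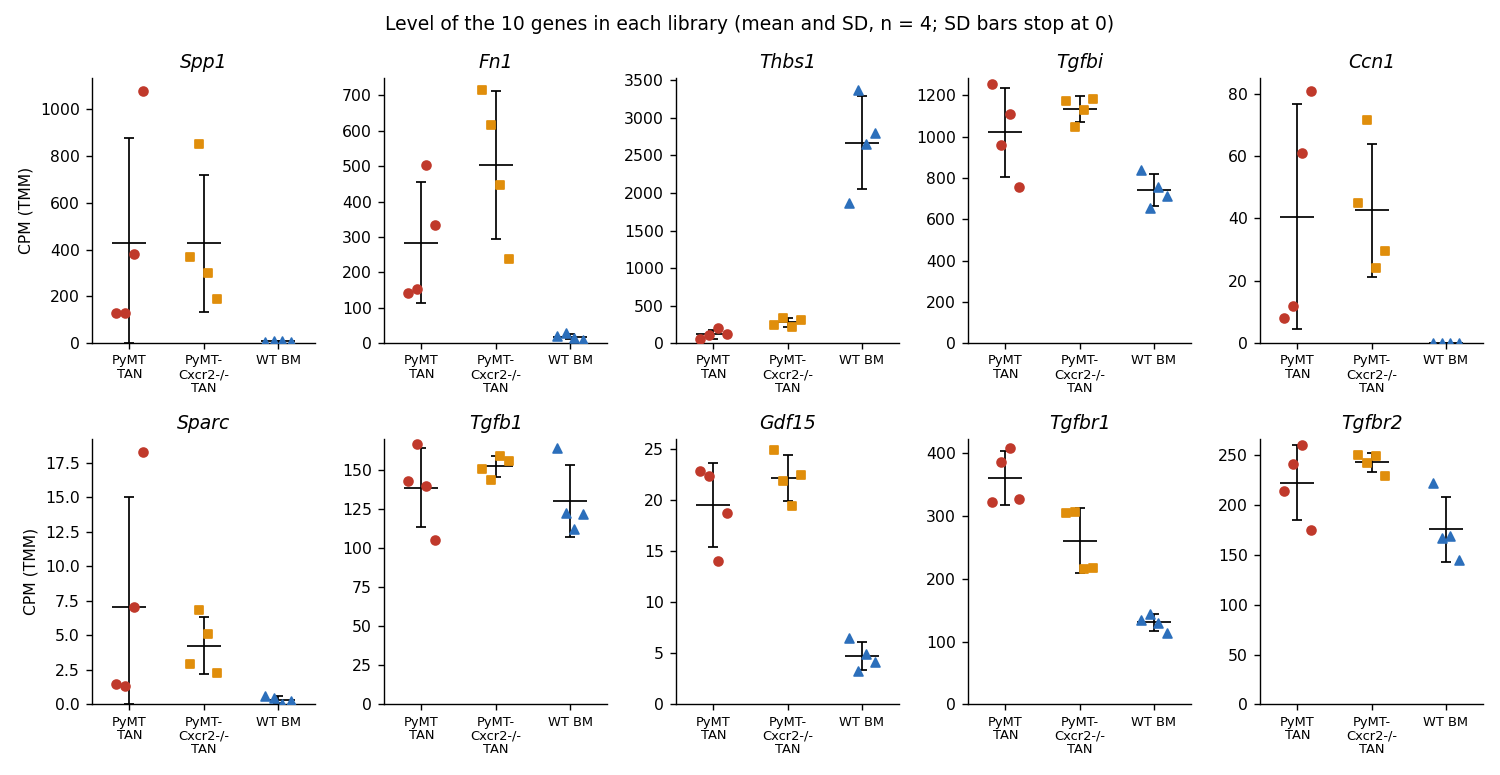
Level of each of the 10 genes in the 12 libraries, in CPM with TMM factors on axes that start at 0; points are libraries, and black marks are the mean and SD of the 4 libraries of a group. Spp1, Fn1, Ccn1, Sparc, Gdf15 and Tgfbr1 lie higher in all 8 TAN libraries than in the 4 BM libraries, Thbs1 lies lower, and Tgfb1 and Tgfbi of PyMT TANs overlap with BM neutrophils.

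The sequences before the start sites of the genes that rose together in both groups of TANs are shown first, since these are the stretches that RNA polymerase and its regulators meet. RefSeq promoters (GRCm38.p6, the same assembly as the mm10 build of the files) were matched by symbol for 8 of the 10 genes, all but Fn1 and Thbs1. The 4 genes shown rose in both groups of TANs and had an entry 0 to 7 bases from the 5′ end of the gene in GENCODE M21. Each line holds the 250 bases before the start, read 5′ to 3′ on the strand of the gene. The stretches are chr5:104434861-104435110 (plus strand) for Spp1, chr3:145649986-145650235 (minus strand) for Ccn1, chr8:70632457-70632706 (minus strand) for Gdf15 and chr4:47352972-47353221 (plus strand) for Tgfbr1. Capitals mark matches, on either strand, to the Smad-binding letters CAGAC or to the TEAD-binding letters CATTCC, and the AP-1 letters TGANTCA were searched in the same way.
Spp1: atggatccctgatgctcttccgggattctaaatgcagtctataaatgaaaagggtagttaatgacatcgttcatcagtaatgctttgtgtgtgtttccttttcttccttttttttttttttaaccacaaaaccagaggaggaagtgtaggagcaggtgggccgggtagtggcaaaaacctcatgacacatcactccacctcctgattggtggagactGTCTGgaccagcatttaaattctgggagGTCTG
Ccn1: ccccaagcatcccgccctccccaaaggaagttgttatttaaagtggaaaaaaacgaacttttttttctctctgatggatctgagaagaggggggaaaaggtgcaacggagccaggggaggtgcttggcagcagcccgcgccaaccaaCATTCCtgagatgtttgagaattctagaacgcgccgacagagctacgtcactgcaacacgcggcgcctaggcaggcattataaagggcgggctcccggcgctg
Gdf15: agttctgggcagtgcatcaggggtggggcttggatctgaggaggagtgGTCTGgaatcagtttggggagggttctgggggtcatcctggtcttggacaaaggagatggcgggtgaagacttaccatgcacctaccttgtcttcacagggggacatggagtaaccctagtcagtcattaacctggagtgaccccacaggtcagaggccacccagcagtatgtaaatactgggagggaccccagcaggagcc
Tgfbr1: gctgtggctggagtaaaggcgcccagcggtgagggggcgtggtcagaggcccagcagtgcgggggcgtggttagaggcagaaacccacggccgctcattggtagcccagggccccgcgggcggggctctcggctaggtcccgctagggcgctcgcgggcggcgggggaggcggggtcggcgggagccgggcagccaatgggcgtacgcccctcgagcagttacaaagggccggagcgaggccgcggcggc
Spp1 held 2 matches to CAGAC, both on the opposite strand, and 1 of them ended at the last base before the start. Gdf15 held 1 match to CAGAC, Ccn1 held 1 match to CATTCC, and Tgfbr1 held no match to any of the 3 motifs. Among all 8 genes with an entry, 5 held CAGAC, 1 held CATTCC and 0 held TGANTCA. Over all 32851 promoter entries of the same length, 42.2% held CAGAC, 12.6% held CATTCC and 6.75% held TGANTCA. The promoters of Tgfbr1 and Tgfb1 had a GC content of 74.8% and 75.2%, that of Spp1 had 43.6%, and the median over all entries was 52.4%. A match is a description of letters and not a bound site.

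Spp1 codes for osteopontin, a secreted phosphoprotein that binds integrins and CD44 and is made by macrophages and by many carcinomas. Its level was 129, 130, 381 and 1081 CPM in the 4 PyMT TAN libraries, 368, 854, 300.4 and 187 CPM in PyMT-Cxcr2-/- TANs, and 5.93, 11.3, 7.77 and 6.43 CPM in BM neutrophils. All 8 TAN libraries were above all BM libraries, and within each group of TANs the libraries were far apart, by 8.38-fold in PyMT TANs and 4.55-fold in PyMT-Cxcr2-/- TANs. Compared to BM neutrophils, Spp1 rose by 5.87 on the log2 scale in PyMT TANs (SE 0.73, edgeR adjusted p = 4.02e-05) and by 5.90 in PyMT-Cxcr2-/- TANs (SE 0.55, edgeR adjusted p = 1.45e-05). Leaving out replicate 4 of PyMT TANs, the library with the highest level, lowered the first value to 4.83 (edgeR adjusted p = 1.02e-05). Between the 2 groups of TANs the log2 difference was -0.05, with a 95% interval of -1.75 to 1.66 (edgeR adjusted p = 0.993), and it was 0.96 without replicate 4 of PyMT TANs (edgeR adjusted p = 0.487). The interval is wide enough to hold a change of more than 1.5-fold in either direction. In M21, 309 of the 1648 exon bases of Spp1 are shared with Gm42793 on the same strand, so its counts are uncertain to that extent.

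Ccn1, formerly Cyr61, codes for a matricellular protein that binds integrins and is a known target of the YAP and TEAD transcription factors. It had 0 counts in all 4 BM libraries, and 8.14, 12.1, 61.0 and 81.0 CPM in PyMT TANs. In PyMT-Cxcr2-/- TANs it was at 44.9, 71.6, 24.2 and 29.4 CPM. It was thus found in every TAN library and in no BM library, and the libraries of PyMT TANs fell into a low pair and a high pair. Set against a floor of 3 counts per library in BM neutrophils (0.0882 CPM on average), Ccn1 was at least 459.6-fold higher in PyMT TANs and at least 482-fold higher in PyMT-Cxcr2-/- TANs. Since Ccn1 entered these tests only through its counts in TANs, it had to be higher there, and the test adds no weight. Without replicate 4 of PyMT TANs, the first bound was 307-fold. The log2 difference between the 2 groups of TANs was 0.03 (95% interval -1.62 to 1.67, edgeR adjusted p = 0.995), and it was below 0 when scaled by library totals alone.

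Sparc codes for osteonectin, a collagen-binding matricellular protein of fibroblasts, endothelium and bone. It was the least abundant of the 10 genes in TANs, with 1.47, 1.32, 7.08 and 18.3 CPM in PyMT TANs and 2.91, 6.81, 5.07 and 2.27 CPM in PyMT-Cxcr2-/- TANs. In BM neutrophils it was at 0.599, 0.498, 0.0571 and 0.224 CPM, with replicate 3 under the floor of 3 counts. The lowest TAN library was still above the highest BM library. Sparc rose by 4.45 on the log2 scale in PyMT TANs (SE 0.96, edgeR adjusted p = 0.00202) and by 3.76 in PyMT-Cxcr2-/- TANs (SE 0.54, edgeR adjusted p = 3.56e-05). Without replicate 4 of PyMT TANs the first value was 3.32 (edgeR adjusted p = 0.00794). Sparc entered the tests against BM neutrophils through its counts in TANs, so these p-values carry no weight. The difference between the TANs was -0.76 (95% interval -2.45 to 0.93, edgeR adjusted p = 0.746), and 0.34 without that replicate.

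The order of the 8 TAN libraries was nearly the same for Spp1, Ccn1 and Sparc, and it was close to the order of the mammary epithelium markers without Lcn2. The summed level of the 14 epithelial markers was 330.2, 369, 939 and 1253 CPM in PyMT TANs and 808, 1137, 517 and 471 CPM in PyMT-Cxcr2-/- TANs. Ranked over these 8 libraries, Spp1 stood in the same order as this sum (Spearman's rho 1, Pearson's r 0.96 on the log2 scale), and Ccn1 (rho 0.98, r 0.97) and Sparc (rho 0.93, r 0.87) stood close to it. For the 13 markers without Lcn2 and Trf the r was 0.91 for Spp1, 0.98 for Ccn1 and 0.83 for Sparc, and for Trf alone it was 0.97, 0.95 and 0.87. With Lcn2 kept in the sum the r fell to 0.64, 0.76 and 0.51, and the sum left out Lcn2 only after its values were seen. The fibroblast sum, most of it Col6a3, had r of 0.81 for Spp1, 0.70 for Ccn1 and 0.71 for Sparc. Its rho was lower, at 0.62, 0.64 and 0.33. The macrophage sum was at 2368, 5139, 5455 and 4109 CPM in PyMT TANs and 4656, 5767, 3072 and 2647 CPM in PyMT-Cxcr2-/- TANs. By r it was the least close of the 3 cell types, with 0.50 for Spp1, 0.57 for Ccn1 and 0.36 for Sparc. Replicate 2 of PyMT TANs, for example, had the third highest macrophage sum and the second lowest level of Spp1. By rho the macrophage sum had 0.57, 0.55 and 0.38, for Sparc above the fibroblast sum. The epithelial sum with Lcn2 had rho of 0.45, 0.55 and 0.33. The order of the cell types thus depended on the measure and on the markers. These correlations describe 8 libraries of 2 genotypes that share a sort and differ in depth (25032704 to 51351569 counts on genes), and the part of epithelial, fibroblast or macrophage RNA in the levels of these genes was not tested.

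**Figure D2:**
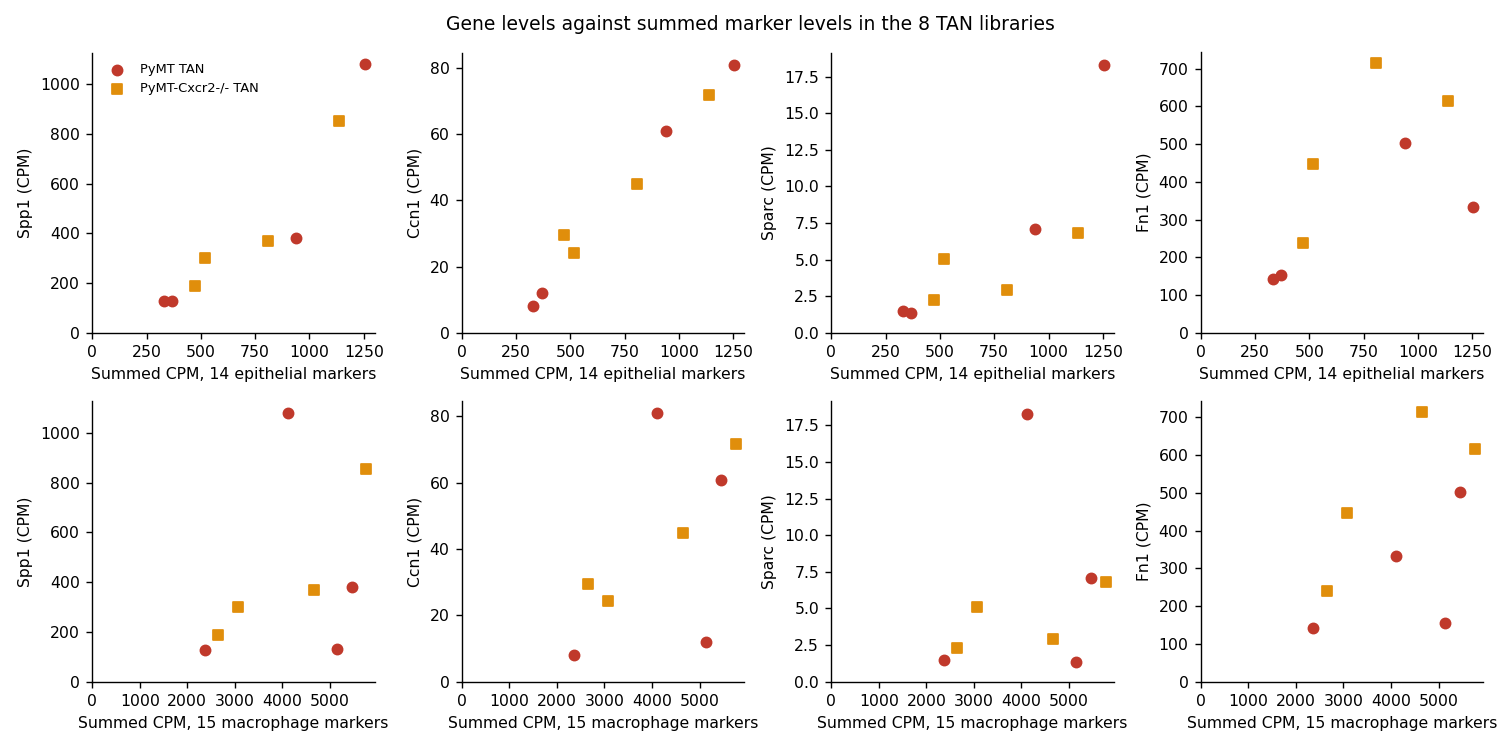
Levels of Spp1, Ccn1, Sparc and Fn1 (CPM, vertical axes) against the summed CPM of 14 mammary epithelium markers (upper row) and 15 macrophage markers (lower row) in the 8 TAN libraries, 1 point per library. Spp1, Ccn1 and Sparc climb with the epithelial sum, which runs from 330.2 to 1253 CPM, and follow the macrophage sum less closely.

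Fn1 codes for fibronectin, the matrix glycoprotein to which the integrin of Itga5 and Itgb1 binds. It was at 143, 154, 504 and 334 CPM in the 4 PyMT TAN libraries, 714, 615, 448 and 239 CPM in PyMT-Cxcr2-/- TANs, and 20.2, 29.0, 15.7 and 9.81 CPM in BM neutrophils. All TAN libraries lay above the BM libraries, and the 2 groups of TANs overlapped. Fn1 rose by 4.02 on the log2 scale in PyMT TANs (SE 0.47, edgeR adjusted p = 2.82e-05) and by 4.88 in PyMT-Cxcr2-/- TANs (SE 0.45, edgeR adjusted p = 7.46e-06). Between the TANs the difference was 0.79 (95% interval -0.20 to 1.78, edgeR adjusted p = 0.469). Over the 8 TAN libraries Fn1 had r of 0.77 with the epithelial sum and 0.53 with the macrophage sum, and the part of these cells was not tested. Of its 11685 exon bases, 292 lie opposite Apol7d, and the strand setting of the counting is not stated.

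Thbs1 codes for thrombospondin 1, a large glycoprotein of platelet granules and of the matrix that binds CD36 and CD47. In BM neutrophils it was at 1861, 3366, 2656 and 2792 CPM. It was at 52.8, 103, 198 and 121 CPM in PyMT TANs and at 242, 336, 213 and 315 CPM in PyMT-Cxcr2-/- TANs. The 3 groups did not overlap, with BM neutrophils highest and PyMT TANs lowest. Compared to BM neutrophils, Thbs1 fell by 4.40 on the log2 scale in PyMT TANs (SE 0.39, edgeR adjusted p = 3.20e-06), which is 21.1-fold lower, and fell by 3.15 in PyMT-Cxcr2-/- TANs (SE 0.20, edgeR adjusted p = 3.27e-08), which is 8.88-fold lower. It ranked 90 among the 55154 genes with a known exon length in BM neutrophils by CPM per kb, 1781 in PyMT TANs and 911 in PyMT-Cxcr2-/- TANs. Of the other cells that make it, platelets and megakaryocytes had 11 markers that together summed to 19.3 to 36.2 CPM in BM neutrophils, 13.5 to 23.2 in PyMT TANs and 18.9 to 22.9 CPM in PyMT-Cxcr2-/- TANs. Of its 6073 exon bases, 208 lie opposite Gm29233.

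Thbs1 was also the gene of the 10 with the largest difference between PyMT-Cxcr2-/- and PyMT TANs, with means of 276 CPM and 119 CPM (SD 58.4 and 60.3, n = 4). The log2 difference was 1.18 (SE 0.33, 95% interval 0.44 to 1.91), and it did not pass the threshold by edgeR (adjusted p = 0.104). It passed with DESeq2 (1.24, adjusted p = 0.00767), with edgeR on all 12 libraries in one fit (adjusted p = 0.0386), and with edgeR without replicate 3 of PyMT TANs (1.56, adjusted p = 0.0357). That was the only 1 of the 8 fits without 1 library in which it passed. By edgeR it also missed with the replicate number as a block (adjusted p = 0.204) and with library totals alone (adjusted p = 0.154). The same held with DESeq2 size factors (edgeR adjusted p = 0.0864) and adjusted for GC content and gene length (edgeR adjusted p = 0.0798). The higher level in PyMT-Cxcr2-/- TANs lay between that of PyMT TANs and that of BM neutrophils. The summed neutrophil markers had the same order of groups, with 15587 to 22367 CPM in PyMT TANs, 25205 to 38785 CPM in PyMT-Cxcr2-/- TANs and 81362 to 107693 CPM in BM neutrophils. S100a8 and S100a9 alone had means of 28295 and 35184 CPM in BM neutrophils. The 14 markers did not move as a set, since against BM neutrophils 4 rose and 8 fell in PyMT TANs, and 4 rose and 9 fell in PyMT-Cxcr2-/- TANs. Csf3r had means of 3737, 4827 and 3955 CPM in the same 3 groups. The part of neutrophil markers in the difference was not tested.

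Tgfbi codes for a secreted matrix protein that TGF-beta induces in many cells and that macrophages make. Unlike the matrix genes above it was abundant in every group, with 1254, 961, 1111 and 755 CPM in the 4 PyMT TAN libraries, 1173, 1045, 1130 and 1183 CPM in PyMT-Cxcr2-/- TANs and 837, 655, 755 and 713 CPM in BM neutrophils. Replicate 4 of PyMT TANs overlapped with BM neutrophils, while all PyMT-Cxcr2-/- TANs were above them. Tgfbi rose by 0.73 on the log2 scale in PyMT-Cxcr2-/- TANs compared to BM neutrophils (SE 0.11, edgeR adjusted p = 6.27e-05). In PyMT TANs the value was 0.54 (SE 0.16, edgeR adjusted p = 0.0120), under the fold threshold, and it was 0.65 and past both thresholds without replicate 4. The difference between the TANs was 0.12 (95% interval -0.23 to 0.47, edgeR adjusted p = 0.830), and -0.06 with library totals alone. Over the 8 TAN libraries Tgfbi had r of -0.51 with the epithelial sum and -0.41 with the macrophage sum.

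Of the ligands, Tgfb1, which codes for the TGF-beta of most leukocytes, was at 143, 167, 140 and 105 CPM in the 4 PyMT TAN libraries, 151, 144, 159 and 156 CPM in PyMT-Cxcr2-/- TANs and 164, 123, 112 and 122 CPM in BM neutrophils. The 3 groups overlapped. The log2 difference to BM neutrophils was 0.17 in PyMT TANs (95% interval -0.19 to 0.53, edgeR adjusted p = 0.400) and 0.35 in PyMT-Cxcr2-/- TANs (95% interval 0.09 to 0.60, edgeR adjusted p = 0.0175), in both cases under the fold threshold. It was 0.10 between the TANs (95% interval -0.22 to 0.43, edgeR adjusted p = 0.848) and -0.09 with library totals alone.

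Gdf15, a distant ligand of the family that cells release under stress and that signals through the receptor Gfral, was at 22.8, 22.3, 14.03 and 18.7 CPM in PyMT TANs. It was at 24.8, 21.8, 19.4 and 22.4 CPM in PyMT-Cxcr2-/- TANs and at 6.47, 3.24, 4.89 and 4.19 CPM in BM neutrophils. Every TAN library was above every BM library, and the 2 groups of TANs overlapped. Gdf15 rose by 2.13 on the log2 scale in PyMT TANs (SE 0.25, edgeR adjusted p = 3.09e-05) and by 2.35 in PyMT-Cxcr2-/- TANs (SE 0.20, edgeR adjusted p = 2.45e-07). Between the TANs the difference was 0.15 (95% interval -0.25 to 0.55, edgeR adjusted p = 0.807). Unlike Spp1 and Ccn1, its r with the epithelial sum over the TAN libraries was -0.41.

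Of the receptors, the type I receptor Tgfbr1 was at 322, 386, 408 and 327 CPM in the 4 PyMT TAN libraries, 305, 306, 215 and 218 CPM in PyMT-Cxcr2-/- TANs and 135, 144, 130.0 and 113 CPM in BM neutrophils. The 3 groups did not overlap, with PyMT TANs highest. Compared to BM neutrophils, Tgfbr1 rose 2.93-fold in PyMT TANs (log2 1.55, SE 0.13, edgeR adjusted p = 2.86e-06) and 2.17-fold in PyMT-Cxcr2-/- TANs (log2 1.12, SE 0.14, edgeR adjusted p = 1.04e-05). PyMT-Cxcr2-/- TANs differed from PyMT TANs by -0.50 (SE 0.17, 95% interval -0.87 to -0.14), with an unadjusted p of 0.0105 and an adjusted p of 0.154 by edgeR, so the difference did not pass. Its direction was the opposite of that of Thbs1, and as with Thbs1 the level in PyMT-Cxcr2-/- TANs lay between those of the other 2 groups. Over the 8 TAN libraries Tgfbr1 had r of -0.89 with the summed neutrophil markers, a description only.

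The type II receptor Tgfbr2, which binds TGF-beta first, was at 213, 241, 259.9 and 175 CPM in the 4 PyMT TAN libraries, 249.7, 242, 249 and 228 CPM in PyMT-Cxcr2-/- TANs and 221, 167, 169 and 144 CPM in BM neutrophils. PyMT TANs overlapped with BM neutrophils and PyMT-Cxcr2-/- TANs lay above them. The difference to BM neutrophils was 0.42 in PyMT TANs (SE 0.17, edgeR adjusted p = 0.0468), under the fold threshold. In PyMT-Cxcr2-/- TANs it was 0.59 (SE 0.12, edgeR adjusted p = 8.65e-04), a fold of 1.502 at the threshold itself, which was no longer reached without replicate 2, 3 or 4 of BM neutrophils (0.55, 0.56 and 0.49). The difference between the TANs was 0.09 (95% interval -0.23 to 0.41, edgeR adjusted p = 0.870). Scaled by library totals alone, the median gene moved by 0.44 between PyMT TANs and BM neutrophils, and Tgfbi, Tgfb1 and Tgfbr2, at 0.98, 0.62 and 0.88, then passed both thresholds. That scaling moved the share of rises among all genes that changed from 56.4% to 72.8% in this comparison, and from 69.9% to 34.5% between the TANs.

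**Figure D3:**
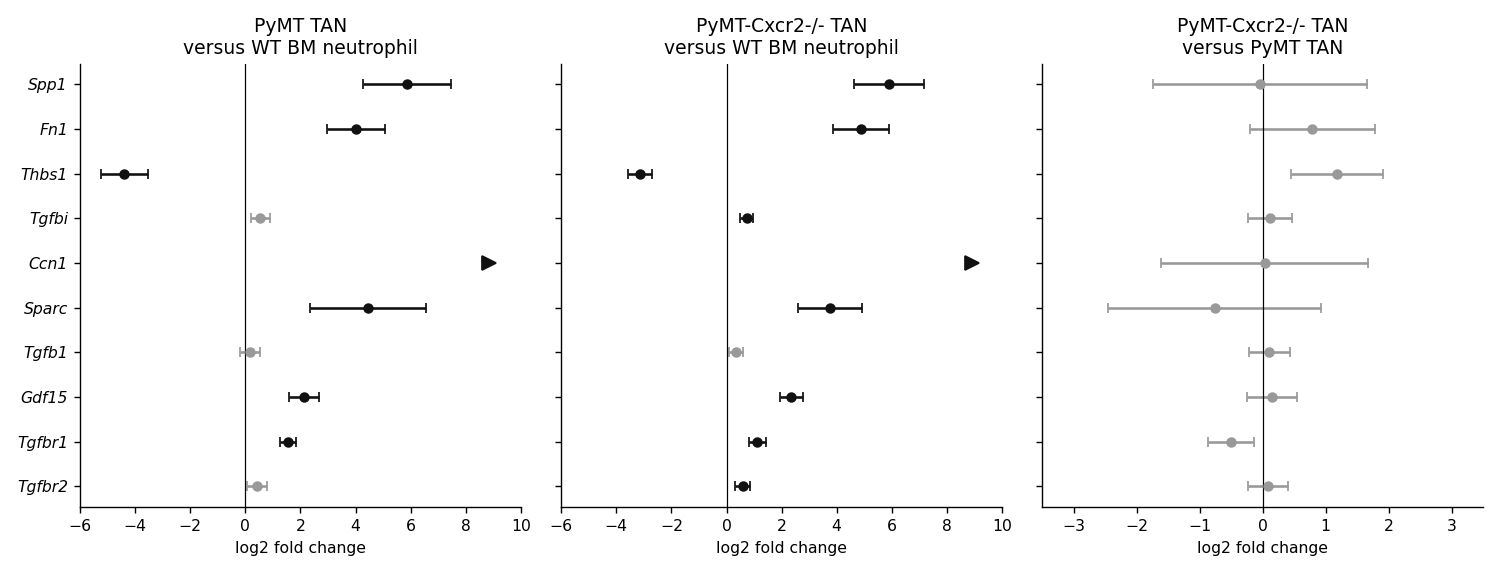
Log2 fold change of the 10 genes in the 3 comparisons (horizontal axes, first group minus second), with 95% intervals from the edgeR fits; black marks passed both thresholds and grey marks did not. The triangles of Ccn1 are lower bounds, since BM neutrophils had 0 counts, and Thbs1 at 1.18 and Tgfbr1 at -0.50 are the only genes of the 10 whose interval leaves out 0 between the TANs.

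Per length, the order of the 10 genes differed between marrow and tumor. In BM neutrophils Thbs1 was highest at 439 ± 102 CPM per kb of exon (SD, n = 4), followed by Tgfbi at 196 ± 20.3, and these did not overlap. Tgfb1, Tgfbr2 and Tgfbr1 followed at 25.8, 21.4 and 19.99 CPM per kb and overlapped with their neighbours, and Spp1, Gdf15, Fn1, Sparc and Ccn1 were at 4.77 CPM per kb or less. In PyMT TANs Tgfbi was highest at 271 ± 56.6 CPM per kb and Spp1 second at 261 ± 273, and in PyMT-Cxcr2-/- TANs these were at 300.4 ± 16.6 and 259 ± 178 CPM per kb. Both pairs overlapped, so that the order within them is not set. The next genes were Tgfbr1 at 55.2 CPM per kb in PyMT TANs and Thbs1, Fn1 and Tgfbr1 at 45.5, 43.1 and 39.9 CPM per kb in PyMT-Cxcr2-/- TANs, the last 3 with overlap. Tgfb1 and Tgfbr2 lay within 27.2 to 30.2 CPM per kb in both groups of TANs. By CPM per kb, Tgfbi and Spp1 ranked 99 and 106 among all 55154 genes in PyMT TANs, 112 and 135 in PyMT-Cxcr2-/- TANs, and 225 and 6121 in BM neutrophils.

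**Figure D4:**
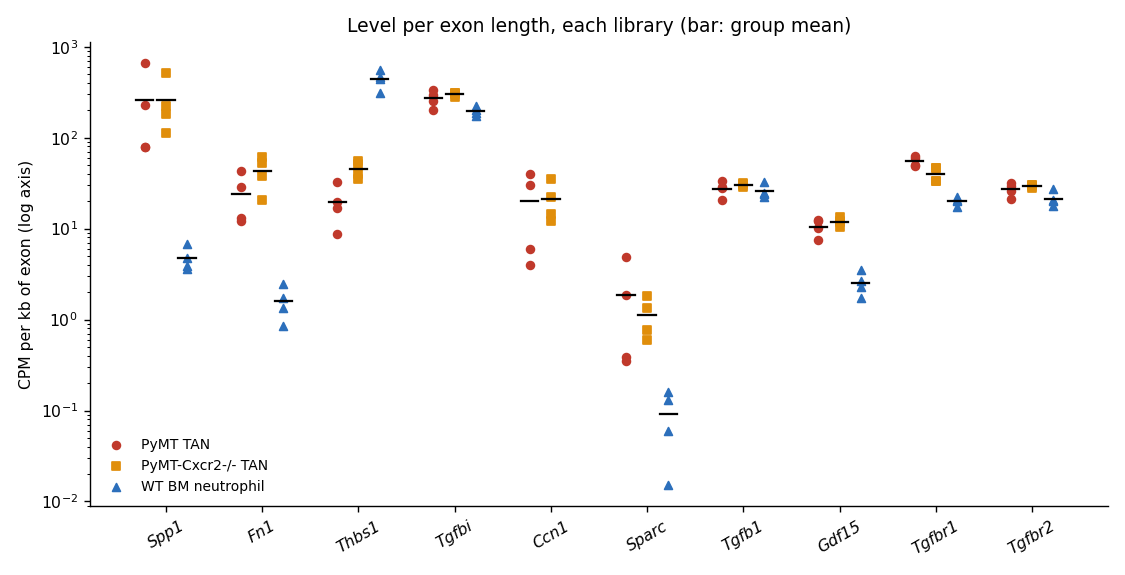
CPM per kb of exon of the 10 genes in each library (log axis), by group, with bars at the group means; Ccn1 in BM neutrophils had 0 counts and is not drawn. Spp1 goes from 4.77 CPM per kb in BM neutrophils to 261 and 259 in the TANs, while Thbs1 goes from 439 to 19.5 and 45.5.

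The spread between libraries set these genes apart. In PyMT TANs the coefficient of variation was 113% for Sparc, 105% for Spp1, 89.1% for Ccn1 and 60.2% for Fn1, beside a median of 36.7% over the 18463 genes tested between the TANs. It was 50.8% for Thbs1, and 11.8% to 20.9% for Tgfbr1, Tgfbr2, Tgfb1, Tgfbi and Gdf15. In PyMT-Cxcr2-/- TANs Sparc, Spp1, Ccn1 and Fn1 had values of 41.3% to 68.8%, beside a median of 22.7%, and Tgfbr2, Tgfb1 and Tgfbi had 4.08% to 5.54%. A wide spread was not limited to TANs. In BM neutrophils it was 72.2% for Sparc, 43.4% for Fn1, 30.8% for Spp1, 29.0% for Gdf15 and 23.2% for Thbs1, beside a median of 18.3%. Sparc had only 20, 16, 2 and 8 counts in these libraries, so its value also holds counting error. The receptors, Tgfb1 and Tgfbi had 10.0% to 18.6% there.

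The genes whose level was most like each of the 10 over the 8 TAN libraries, by Pearson's r of log2 CPM among 11647 genes, were also different for the groups above. They were Syne4 and Trf for Spp1 (r 0.98 and 0.98), Nfib and Prdx4 for Ccn1 (both 0.99), Aplp2 and Crem for Sparc (0.98 and 0.95), and Prrc1 and Cbx6 for Fn1 (both 0.96). Trf is itself one of the epithelial markers. Timp2 and Capg were nearest to Thbs1 (0.99 and 0.98), Glg1 and Rnf41 to Tgfbi (0.99 and 0.98), and Dennd4b and Map3k14 to Tgfb1 (both 0.97). Camk2d and Tmem161a were nearest to Gdf15 (0.99 and 0.97), Ptma and Parp12 to Tgfbr1 (both 0.98), and Unc93b1 and Tlnrd1 to Tgfbr2 (0.99 and 0.97). With 8 libraries and this many genes searched, values of this size are a description.

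The other genes of the pathway are given from lists of its parts, and their counts stand beside the 30.1% and 34.4% of all genes tested that rose, and the 23.2% and 25.1% that fell, in PyMT TANs and PyMT-Cxcr2-/- TANs compared to BM neutrophils. Genes with few counts in BM neutrophils entered the tests only through TANs and so had to be higher, and their rises carry no weight. Without the genes that had fewer than 10 counts in every BM library, 25.98% and 28.57% of all genes tested rose, and each list is counted in this way too. That limit keeps genes with 10 or more counts in only some BM libraries, such as Sparc with 20, 16, 2 and 8. Such genes could also enter only through TANs, so the shares given in this way still hold some rises without weight. Of 15 other ligands, 8 were tested in PyMT TANs against BM neutrophils, of which 6 rose and 1 fell, and 10 were tested in PyMT-Cxcr2-/- TANs, of which 7 rose and 2 fell. Of the 3 with 10 or more counts in a BM library, 1 and 0 rose. The activin subunit gene Inhba fell from 81.8 ± 14.4 CPM in BM neutrophils (SD, n = 4) to 17.9 ± 6.82 in PyMT TANs (log2 -2.12, edgeR adjusted p = 5.08e-05) and 18.5 ± 4.21 CPM in PyMT-Cxcr2-/- TANs (log2 -2.03, edgeR adjusted p = 2.31e-07). Tgfb3 and the activin subunit gene Inhbb rose in both, Tgfb3 from 0 to 0.0934 CPM in BM neutrophils to 3.10 to 17.5 in PyMT TANs and 5.21 to 18.02 CPM in PyMT-Cxcr2-/- TANs. Of 13 latency and activation genes tested, 9 rose and 1 fell in PyMT TANs, and 10 rose and 1 fell in PyMT-Cxcr2-/- TANs, with 4 and 5 rises among the 8 that had such counts in BM neutrophils. Mmp14, a membrane metalloprotease, was at 0 to 0.124 CPM in BM neutrophils and at 35.6 to 78.9 CPM in TANs, and the integrin gene Itgb8, whose product activates latent TGF-beta, had means of 0.0351 CPM in BM neutrophils and 11.7 and 14.2 CPM in the TANs. Mmp9, a protease of neutrophil granules, fell from 6620 ± 1303 CPM to 934 ± 332 in the TANs of PyMT mice and to 2150 ± 602 CPM in PyMT-Cxcr2-/- TANs.

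Of 10 receptors and co-receptors tested, 4 rose and 2 fell in PyMT TANs, and 6 rose and 2 fell in PyMT-Cxcr2-/- TANs, with 2 and 4 rises among the 8 with such counts. The BMP receptor genes Acvrl1 and Bmpr1a fell in both, Bmpr1a from 87.7 ± 11.4 CPM to 22.5 ± 5.61 and 22.7 ± 2.16 CPM. Acvr1 and Eng, which codes for the co-receptor endoglin, rose in both, with mean levels of 5.29 to 8.31 CPM in TANs. Among 9 Smads and partners, 3 rose and 4 fell in PyMT TANs, and 3 rose and 2 fell in PyMT-Cxcr2-/- TANs, a share of rises near that of all genes. Smad2, which TGF-beta receptors phosphorylate, fell from 80.4 ± 3.48 CPM to 45.3 ± 4.595 CPM in PyMT TANs (log2 -0.75, edgeR adjusted p = 1.26e-04) and 47.7 ± 5.76 CPM in PyMT-Cxcr2-/- TANs (log2 -0.63, edgeR adjusted p = 8.01e-05). The counts of its partner Hgs fell in both as well. In M21, 2897 of the 2980 exon bases of Hgs are shared on the same strand with another entry of that name, so its level is uncertain. Smad1 and the Smad anchor Zfyve9 rose in both, Smad1 from 3.77 CPM to 9.98 and 9.59 CPM.

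Of 13 inhibitors tested, 8 rose in each group of TANs, and 2 fell in PyMT TANs and 1 in PyMT-Cxcr2-/- TANs, with 6 rises in each among the 11 with such counts. Pmepa1, which is induced by TGF-beta and restrains Smad signalling, was at 0 to 0.0622 CPM in BM neutrophils and at 41.1 to 104 CPM in TANs. Tgif1, a Smad corepressor, rose from 7.42 ± 2.52 CPM to 276 ± 41.4 CPM in PyMT TANs (log2 5.30, edgeR adjusted p = 5.79e-08) and 189 ± 28.0 CPM in PyMT-Cxcr2-/- TANs (log2 4.79, edgeR adjusted p = 3.81e-09). The phosphatase gene Ppm1a fell in both, and the ubiquitin ligase gene Smurf1 fell in PyMT TANs. Of 15 targets tested, 12 rose and 0 fell in each comparison with BM neutrophils, with a median log2 fold change of 3.39 in PyMT TANs and 4.41 in PyMT-Cxcr2-/- TANs, beside 0.09 over all genes in both. Of the 12 targets with 10 or more counts in a BM library, 9 rose in each. The medians include the other 3 targets, which had to be higher. No target had a lower level at an unadjusted p under 0.05 by edgeR or past the thresholds by DESeq2, 0 of 15 in each comparison with BM neutrophils. Ccn2, of the same protein family as Ccn1, had means of 0.0290 CPM in BM neutrophils and 5.49 and 5.23 CPM in the TANs. The collagen genes Col1a1, Col3a1 and Col1a2 of this list are also fibroblast markers, and the part of fibroblast RNA was not tested.

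Of the integrins and other matrix receptors, 13 of 20 rose and 5 fell in PyMT TANs, and 12 of 19 rose and 5 fell in PyMT-Cxcr2-/- TANs, with 10 rises in each among the 17 with such counts in BM neutrophils. Itga9, whose product binds osteopontin, had means of 0.133 CPM in BM neutrophils and 33.0 and 40.3 CPM in the TANs. Itgb3, which codes for a subunit of the osteopontin and fibronectin receptor and is also made by megakaryocytes, fell from 113 ± 25.3 CPM to 14.4 ± 4.55 in PyMT TANs and to 21.7 ± 4.01 CPM in PyMT-Cxcr2-/- TANs. Itga8 fell in both as well. Of the 44 other matrix and matricellular genes, 27 were tested in PyMT TANs, of which 21 rose and 2 fell, and 29 in PyMT-Cxcr2-/- TANs, of which 25 rose and 2 fell. Among those with 10 or more counts in a BM library, 12 of 18 and 15 of 19 rose. Mfge8, a milk fat globule protein that binds integrins, had means of 0.235 CPM in BM neutrophils and 48.9 and 68.6 CPM in the TANs. Sparcl1, a relative of Sparc, had 0 counts in all BM libraries and 0.211 to 12.4 CPM in PyMT TANs. Ccn3 fell in both, to 0.195 in PyMT TANs and to 0.839 CPM in PyMT-Cxcr2-/- TANs from 3.92 CPM in BM neutrophils, a direction opposite to that of Ccn1 and Ccn2. Ccn4 fell in PyMT-Cxcr2-/- TANs, from 4.94 ± 1.28 CPM to 2.78 ± 0.53 CPM (log2 -0.71, edgeR adjusted p = 0.0172), a call that was lost in 3 of the 8 fits that left out 1 library.

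Between the 2 groups of TANs, few genes of the lists passed both thresholds, as did few of all genes tested (1.98% by edgeR and 5.17% by DESeq2). None did among the other ligands (0 of 9), the latency and activation genes (0 of 14), the Smads and partners (0 of 9) and the inhibitors (0 of 14) by edgeR. At an unadjusted p under 0.05 there were 1, 1, 0 and 4 in these 4 lists, and DESeq2 called 0, 1 (Mmp9), 0 and 1 (Smurf1). The BMP receptor genes Acvrl1 and Bmpr2 were higher in PyMT-Cxcr2-/- TANs, Acvrl1 at 109 to 172 CPM against 32.3 to 64.2 CPM (log2 1.57, SE 0.22, edgeR adjusted p = 0.0108) and Bmpr2 at 141 to 233 CPM against 93.9 to 119 CPM (log2 0.77, SE 0.16, edgeR adjusted p = 0.0361). Among the targets, Snai1, a transcription factor known from epithelial to mesenchymal transition, was higher at 57.0 to 80.9 CPM against 16.2 to 21.99 CPM (log2 1.69, SE 0.16, edgeR adjusted p = 0.00143). The cell cycle inhibitor gene Cdkn1a was lower at 159 to 199 CPM against 293 to 440.0 CPM (log2 -0.90, SE 0.16, edgeR adjusted p = 0.0182). Itga5, which codes for a subunit of the fibronectin receptor, was lower at 68.6 to 95.8 CPM against 121 to 151 CPM (log2 -0.72, edgeR adjusted p = 0.0377), and it missed the thresholds when any of the 8 libraries was left out. Adjusted for GC content and gene length, neither Bmpr2 nor Itga5 passed (edgeR adjusted p = 0.0595 for both). Of 39 matrix genes, Col5a1 was higher (2.24, edgeR adjusted p = 0.0266) and the collagen prolyl hydroxylase gene P4ha1 was lower (-0.98, edgeR adjusted p = 0.0190). Snai1 remained past the thresholds in all 8 fits that left out 1 library, Acvrl1 in 7, Cdkn1a and P4ha1 in 5, and Bmpr2 and Col5a1 in 2. The lists of ligands, latency genes, Smads, inhibitors, targets, integrins and matrix genes had medians of -0.05 to 0.22 in this comparison and the receptors 0.39, beside -0.07 over all genes.

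**Figure D5:**
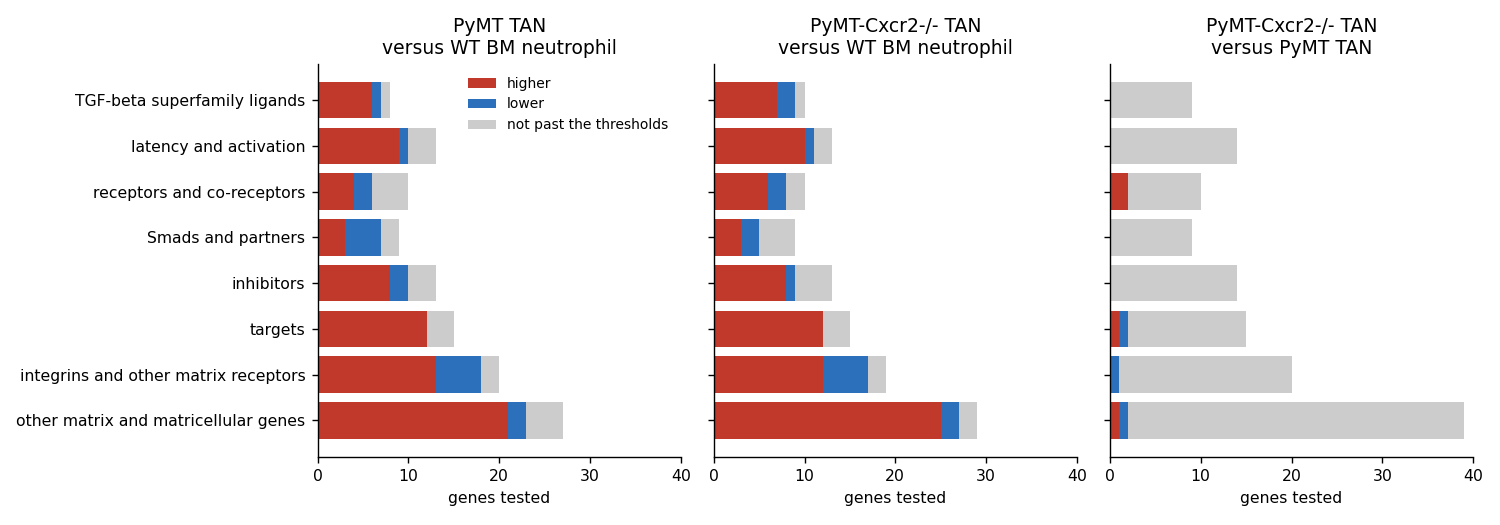
Number of genes in each pathway list that were higher in the first group, lower, or not past the thresholds (adjusted p under 0.05 and 1.5-fold) in the 3 comparisons; the bar length is the number tested. Most genes of the lists of targets and of other matrix genes rose against BM neutrophils, 12 of 15 targets in each, while 0 to 2 genes of each list rose between the TANs. Of all genes tested, 30.1% and 34.4% rose against BM neutrophils. The rises include 3 targets and 9 (PyMT TANs) or 10 (PyMT-Cxcr2-/- TANs) matrix genes with fewer than 10 counts in every BM library, which had to be higher.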

How the data were processed

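Per the study's methods, the authors made directional libraries after ribosomal RNA depletion, and aligned the paired-end reads to mm10, while the submitters' processing notes name FastQC and HTSeq. The deposited values are raw counts of reads per gene and library, without normalization. The annotation release and the strand setting of the counting are not given in the sources used here. Reads without a feature were 32.0% to 52.5% of each total and stayed out of library sizes.

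Of 55335 genes, 55154 were matched to GENCODE M21. Each comparison was fitted on its 2 groups with edgeR 4.0.16 in R 4.3.3 (TMM, filterByExpr, robust quasi-likelihood test, Benjamini-Hochberg adjustment over all genes tested). The SE was the log2 fold change over the square root of F, and intervals came from the same fit. CPM used TMM factors over the 12 libraries. All 18 replicate pairs differed by more than sampling noise (chi-square per degree of freedom of 24.9 or more). The procedure was tested on simulated counts. Floors cover counting error only, whereas the intervals from the edgeR fits also include the spread between the libraries of a group.

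The 10 genes, the lists and the tests were chosen with earlier results of these data known. Named were the 10 genes, the genes of each pathway list that passed the thresholds between the TANs, up to 2 largest rises and 2 largest falls of each list against BM neutrophils at an average of 1 or more on the log2 CPM scale, the 2 genes most like each of the 10, and the leading markers. Col1a1, Col3a1 and Col1a2 were named after their values were seen. Alternatives were DESeq2 1.42.0, other normalization factors and filters, no robust estimation, all 12 libraries in one fit, the replicate number as a block, other fold thresholds and each library left out. An adjustment of each library for GC content and length of the genes, the epithelial sums without Lcn2 or Trf, and the limit of 10 counts in BM neutrophils, were chosen after seeing the data.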

Additional observations from a re-analysis of the deposited data

How the results depend on the processing

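Of the log2 fold changes of the 10 genes under all alternatives, 165 of 170 against BM neutrophils in PyMT TANs, 164 of 170 in PyMT-Cxcr2-/- TANs and 145 of 170 between the TANs kept their direction and their side of the thresholds. Between the TANs, 22 changed sign, all of values that had not passed, and the cause was not tested. With library totals alone Tgfbi was at -0.0636, Ccn1 at -0.16, Tgfb1 at -0.0861, Gdf15 at -0.0327 and Tgfbr2 at -0.10. Spp1 was at 0.0147 with DESeq2 size factors, 0.0420 without a filter, 0.0183 with DESeq2 and 0.0188 adjusted for GC content and gene length, where Ccn1 was at -0.10. Leaving out each library in turn gave -0.62 to 0.96 for Spp1, -0.34 to 0.61 for Ccn1, -1.10 to 0.34 for Sparc, -0.00572 to 0.21 for Tgfb1 and -0.00712 to 0.19 for Tgfbr2.

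Replicate numbers come from the labels and name different animals. From their group means, libraries with the same number deviated with an average r of -0.14 between the TANs (-0.23 to -0.08), -0.04 for PyMT TANs and 0.05 for PyMT-Cxcr2-/- TANs with BM neutrophils, and 0, 0 and 6 of 8 libraries correlated best with their own number. With the replicate number as a block, Spp1 was at 0.38 and Sparc at 0.00322 between the TANs, 4 genes were higher and 9 lower there, and the calls of the 10 genes did not change. Of the 7 list genes that passed between the TANs, 1, Snai1, passed with the block.

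Between the TANs, 1 of the 10 genes, Thbs1, was higher with DESeq2, with all 12 libraries in one fit and without replicate 3 of PyMT TANs, and 0 to 1 over the fits that left out 1 library. Over all genes, 255 were higher and 110 lower. The higher genes numbered 471 without a filter, 579 with all 12 libraries, 645 with DESeq2, 158 adjusted for GC content and gene length, 156 at a fold of 2, and 10 to 427 without 1 library, 10 of them without replicate 2 of PyMT TANs. The lower genes numbered 391 with library totals, 307 with all 12 libraries, 390 with DESeq2, 59 at a fold of 2, and 13 to 100 without 1 library. In PyMT TANs against BM neutrophils 2488 genes were lower with library totals, beside 3988.

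At a Tgfbi of 0.58 adjusted for GC content and gene length, and a Tgfbr2 of 0.40 with it and 0.45 with all 12 libraries, the rises of both in PyMT-Cxcr2-/- TANs no longer reached 1.5-fold. In BM neutrophils 3 counts were 0.0838 to 0.0934 CPM, and lower levels there were not told from 0 at this depth.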
